A study of Mus musculus with 14 samples.

Results

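The collagen genes were followed here on mouse expression arrays from livers of mice on a control diet and on a diet used to bring on a fatty, inflamed liver. Members were chosen by symbol alone: every probe set whose annotated symbol has the form of a collagen chain gene (Col, a type number, a, a chain number), with the brightest probe set standing for a gene. This gave 42 genes, each with 1 probe set, of 19505 symbols on the array. Col7a1 and Col12a1 were listed among the 44 chain genes looked for and had no named probe set. All mice were adult male wild-type C57Bl6 mice on 1 of 2 diets for 2 weeks. The control diet is labelled CSAA, and the other is labelled CDAA with cholesterol, glucose and fructose added (CDAA-HSHC in the title of the series). These names commonly stand for choline-supplemented and choline-deficient diets made from amino acids. Primary hepatocytes, isolated by perfusing the liver with collagenase in 2 steps, gave 3 arrays per diet. Total liver, the caudal lobe of animals perfused with saline through the heart, gave 4 arrays per diet. The design of the series calls them independent preparations, and the RNA kit was not the same for the 2 tissues.

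Collagens are matrix proteins whose chains wind around each other into a stiff helix. Fibrillar collagens (types I, II, III, V, XI, XXIV and XXVII) assemble into the cross-banded fibres that give scar tissue its strength, and type V chains are built into type I fibres and limit their width. Type IV collagen forms the sheet of basement membranes, type VI forms beaded filaments, and types VIII and X form hexagonal lattices. The rest are collagens that sit on fibres (FACIT collagens, such as type XIV), the basement membrane collagens XV and XVIII (multiplexins), and collagens anchored in the cell membrane. In liver, stellate cells and portal fibroblasts are the known main sources of fibrillar collagen in fibrosis, while hepatocytes are a known source of collagen XVIII, the precursor of endostatin.

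Levels are the log2 values deposited by the authors, and all differences are in log2 units, CDAA minus CSAA, ± SE from the fit. They are not turned into folds, because the highest deposited value was 19.92, more than the log2 of the largest reading a 16-bit scan can give, so the scale may be stretched. Medians over all probe sets were 4.56 to 4.71 in the hepatocyte arrays and 6.07 to 6.24 in the total liver arrays, so levels were not compared between the tissues. A gene was called changed where the adjusted p of limma (Benjamini-Hochberg over 22206 tested probe sets) was under 0.05. A gene was taken as not above background in a group whose every array read lower than its own 95th percentile over the 5222 intron controls, probe sets that match introns and so see little mature message. This bar lay at 6.84 to 8.01 for hepatocytes and 9.96 to 10.23 for total liver. In total liver the median intron control probe set (5.97 to 6.21) was as bright as the median tested probe set (5.85 to 6.06), so the bar is strict there. Where a group was under it, "bound" gives the difference left with that group set at the bar.

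The labelled cell type was checked against markers, and the hepatocyte preparations on CDAA stood apart. Markers of hepatocytes were the brightest of all lists in every hepatocyte array, with a mean over 8 genes of 18.21 to 18.38 on CSAA and 17.33 to 18.20 on CDAA. Markers of other liver cells were also far higher in the CDAA preparations. The mean over 9 stellate cell markers went from 5.10 to 5.70 on CSAA to 8.18 to 9.32 on CDAA, and 8 of the 9 genes were called higher. Des, Hand2 and Ngfr among them lay under the bar in every group. Of 7 sinusoidal endothelial markers 7 were called higher, with means of 6.31 to 6.78 on CSAA and 10.15 to 11.42 on CDAA. Of 6 macrophage markers 6 were called higher, with means of 5.10 to 5.43 on CSAA and 12.21 to 14.06 on CDAA. Acta2 and Tagln, the contractile genes of myofibroblasts and smooth muscle, were called higher among 4 markers, and Myh11 and Cnn1 lay under the bar in every group. Of 6 portal fibroblast markers Cd34 was called higher, and Thy1, Gli1, Entpd2, Fbln2 and Eln lay under the bar in every group. Of 8 hepatocyte markers, Cps1 and Hnf4a were called lower in these preparations. Among all tested probe sets 11.0% were called higher and 7.74% lower in hepatocytes. The collagen results in hepatocytes below come from the same preparations, and the part of the markers in them was not tested. In bulk RNA, more cells of a type and more RNA per cell cannot be told apart.

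**Figure D1:**
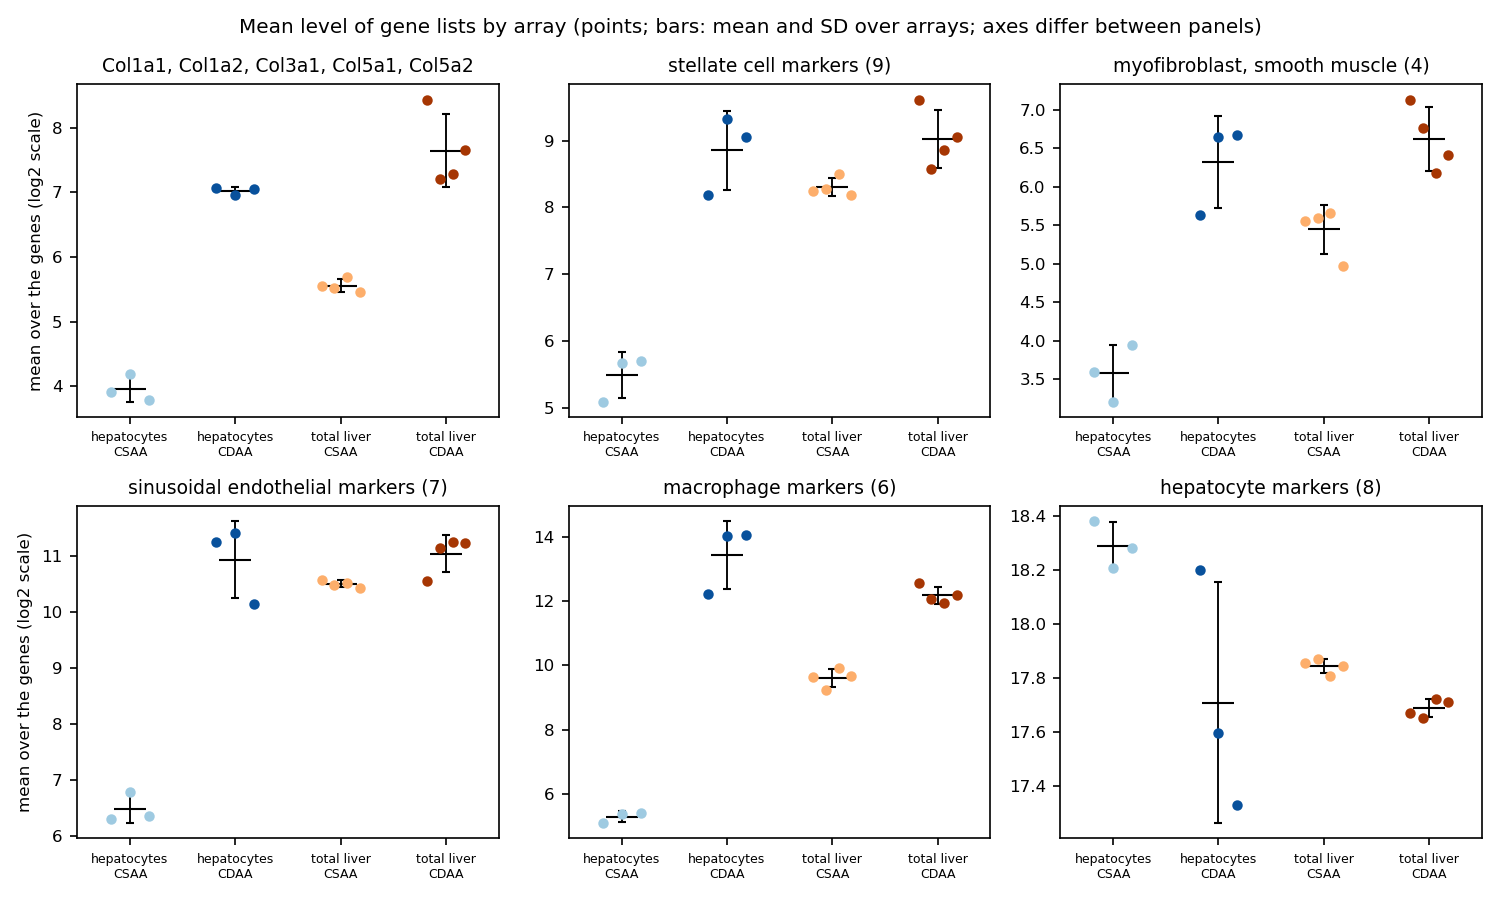
Mean deposited log2 value over the genes of a list (vertical axes, which differ between panels) in each array (points), for hepatocytes and total liver on CSAA and CDAA; bars are the mean and SD over arrays. In hepatocytes the mean of Col1a1, Col1a2, Col3a1, Col5a1 and Col5a2, the genes of the fibrillar class that rose there (3.80 to 4.19 on CSAA, 6.96 to 7.06 on CDAA, against 3.94 to 4.32 and 5.17 to 5.53 for all 11 fibrillar genes), and the markers of stellate, endothelial and macrophage cells are all higher in each CDAA array than in any CSAA array, and in total liver the first CDAA array is the highest for the collagen, stellate and macrophage lists.

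In total liver the shift was far smaller. The stellate mean was 8.19 to 8.49 on CSAA and 8.57 to 9.61 on CDAA, with 2 of 9 genes (Des, which lay under the bar, and Pdgfrb) called higher. The endothelial mean was 10.43 to 10.58 and then 10.56 to 11.26, with 1 of 7 called (Lyve1), and the macrophage mean was 9.25 to 9.93 and then 11.93 to 12.56, with 5 of 6 called. Acta2 rose by 2.37 ± 0.45 (adjusted p = 0.00262) and Tagln by 2.18 ± 0.57 (adjusted p = 0.0223). Of the portal fibroblast markers Entpd2 and Cd34 were called higher. Among all tested probe sets 6.73% were called higher in total liver. The mesothelial markers Msln, Upk3b, Upk1b and Wt1 and 3 of 4 cholangiocyte markers, Krt19, Krt7 and Epcam, lay under the bar in every group of both tissues. The fourth, Sox9, was above it in 2 CSAA and 1 CDAA arrays of hepatocytes and in the first CDAA array of total liver, and was not called in either tissue (adjusted p = 0.344 and 0.798).

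On CDAA Col1a1, Col1a2, Col3a1, Col5a2, Col6a1 and Col6a3 rose in both tissues, and most other collagen genes did not pass the test. In total liver 7 of 42 collagen genes rose (Col1a1, Col1a2, Col3a1, Col5a2, Col4a1, Col6a1 and Col6a3) and 1 fell (Col27a1). Those are 16.7% and 2.38% of the members, beside 6.73% higher and 3.54% lower among all tested probe sets (10.3% in either direction). In hepatocytes 10 rose (Col1a1, Col1a2, Col3a1, Col5a1, Col5a2, Col4a2, Col6a1, Col6a2, Col6a3 and Col14a1) and 4 fell (Col15a1, Col18a1, Col20a1 and Col22a1). Those are 23.8% and 9.52%, beside 11.0% and 7.74% of all tested probe sets (18.7% in either direction). The diets did not overlap for 9 members on the higher and 6 on the lower side in total liver (21.4% and 14.3%, beside 13.1% and 12.0% of all tested probe sets), and for 10 and 5 in hepatocytes (23.8% and 11.9%, beside 12.4% and 14.2%). The median difference of the members was -0.22 in total liver and -0.21 in hepatocytes, and that of all tested probe sets was -0.09 and -0.13. The split of rising against falling members moved with the scaling, to 6 against 2 in total liver with arrays centred on their medians, and in hepatocytes to 9 against 6 with centring and 10 against 7 with joint quantile normalization. The background moved as well. Of all tested probe sets 1494 rose and 785 fell in total liver, and 1265 and 1650 with centring. In hepatocytes 2439 rose and 1719 fell, 2149 and 3244 with centring, and 2360 and 3068 with joint quantile normalization, so that falls outnumbered rises under these scalings. Hepatocyte arrays varied more within a group (root mean square 0.363 to 0.594) than total liver arrays (0.229 to 0.320). With only the hepatocyte arrays in the fit, 7 members rose and all 4 falls were lost. In that fit 1450 of all tested probe sets rose and 433 fell, so calls were fewer over the whole array as well.

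**Figure D2:**
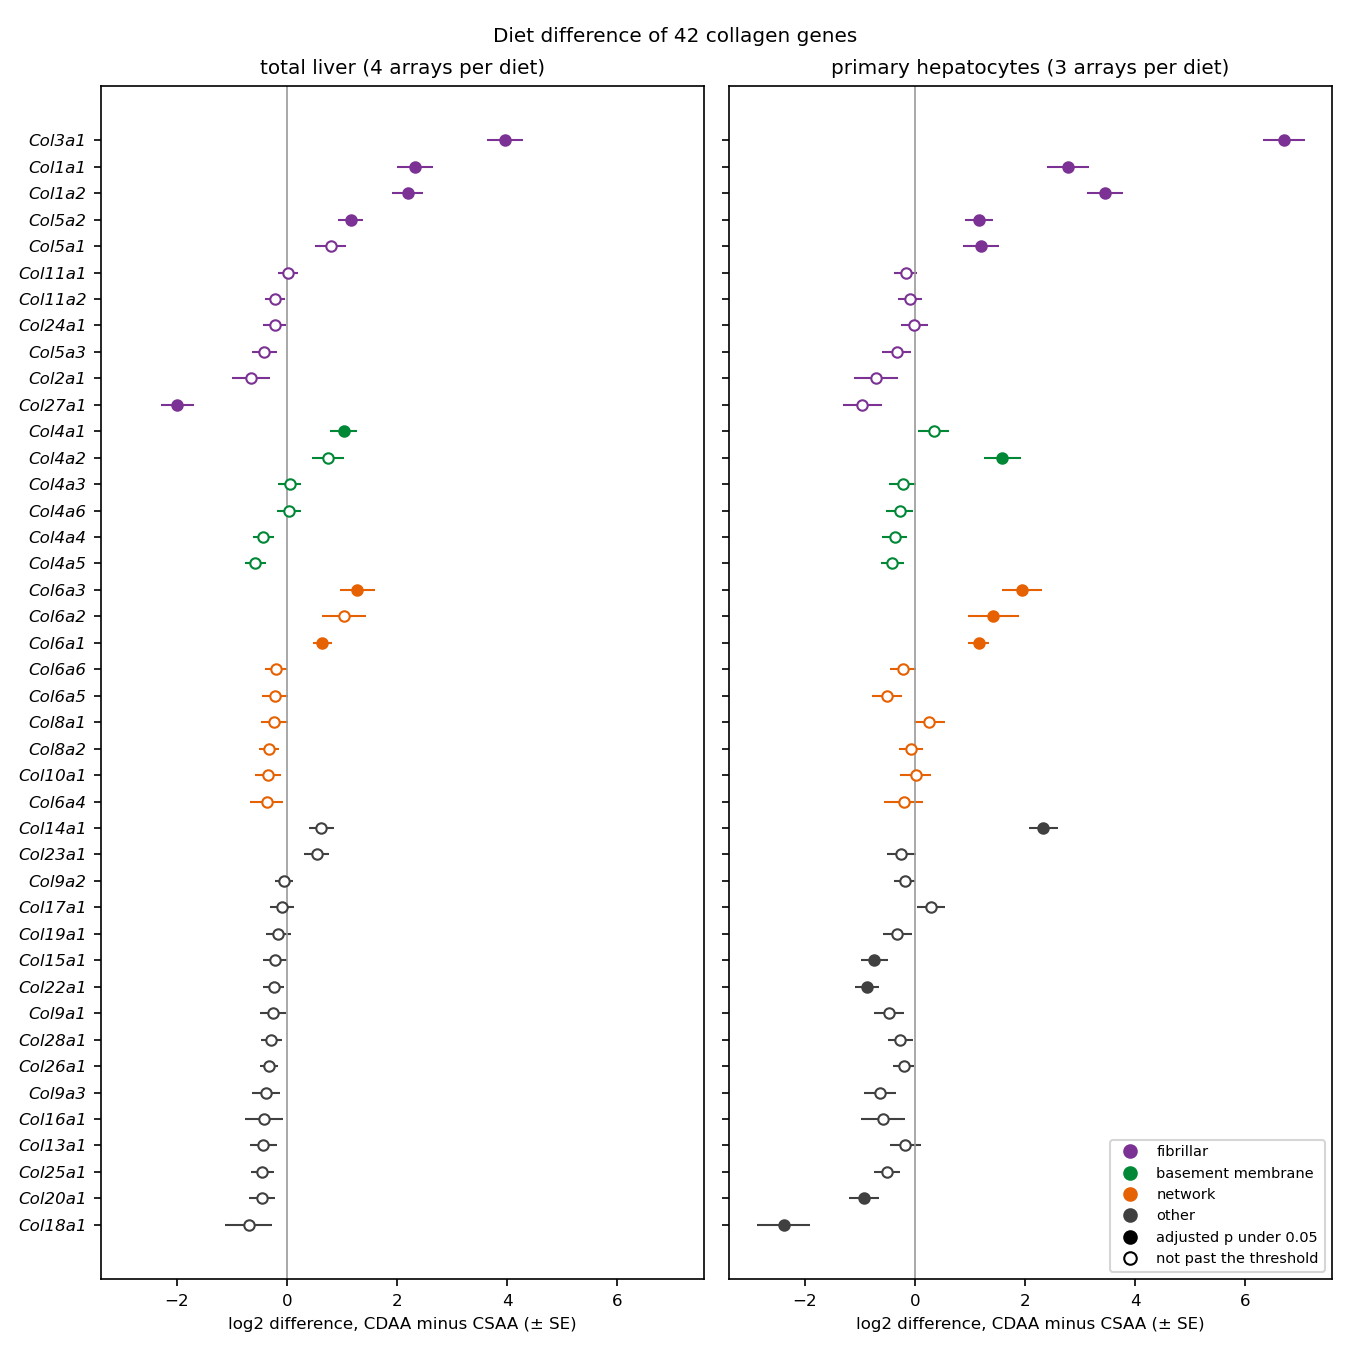
Difference of each of the 42 collagen genes, CDAA minus CSAA, in log2 units (horizontal axis, points with SE bars), in total liver (left) and primary hepatocytes (right), coloured by class and ordered by class and by the total liver value. Filled points passed the threshold; the called genes are chains of types I, III, V and XXVII, of types IV and VI, and in hepatocytes also Col14a1 and 4 lower genes of the class called other.

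Few collagen genes stood above background. In hepatocytes 2 of 42 did on CSAA (Col16a1 and Col18a1) and 7 on CDAA (also Col1a1, Col1a2, Col3a1, Col6a3 and Col14a1). The bar itself was 7.57 to 8.01 there on CSAA and 6.84 to 7.61 on CDAA. On CDAA Col1a1, Col14a1 and Col16a1 were above it in 1 of 3 arrays and Col6a3 in 2. The highest CDAA readings of Col1a1 (7.54), Col6a3 (7.56) and Col14a1 (7.55) were under the bar of every CSAA hepatocyte array. In total liver Col18a1 was the only one on CSAA, and Col3a1 joined it on CDAA. Among all tested probe sets 28.4% and 36.8% were above the bar in hepatocytes on CSAA and CDAA, and 22.6% and 24.0% in total liver. In all 35 of the 42 genes lay under it in every group. With the highest antigenomic control probe set of each array as the bar instead, a choice made after the data were seen, 6 and 13 members stood above in hepatocytes and 11 and 12 in total liver. For genes under the bar in both diets, a difference is given as fitted and its size has no bound.

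Col3a1, the only chain of type III collagen, had the largest difference of any collagen gene in both tissues (probe set TC0100000343.mm.2). In total liver it read 7.48, 7.56, 8.31 and 7.69 on CSAA and 12.90, 11.06, 11.18 and 11.74 on CDAA. In hepatocytes it read 4.96, 5.08 and 5.05 on CSAA and 11.54, 12.03 and 11.62 on CDAA. The diets did not overlap in either tissue, and the gene passed from under the bar to above it in every CDAA array. Its rank among the intron controls of its own array went from the 75.0 to 84.9 percentile to 97.3 to 98.6 in total liver, and from 68.7 to 72.2 to 98.9 to 99.3 in hepatocytes. The fitted difference was 3.96 ± 0.33 in total liver (adjusted p = 1.95e-06, bound 1.64) and 6.70 ± 0.38 in hepatocytes (adjusted p = 6.97e-09, bound 3.99).

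Col1a1 and Col1a2, the chains of type I collagen, rose together. Col1a1 (TC1100001448.mm.2) read 6.32, 6.03, 5.67 and 6.14 in total liver on CSAA and 9.46, 7.59, 8.20 and 8.22 on CDAA, a difference of 2.33 ± 0.33 (adjusted p = 0.000244). Col1a2 (TC0600000010.mm.2) read 6.04, 5.74, 6.48 and 5.84 and then 8.96, 7.79, 8.04 and 8.09, a difference of 2.20 ± 0.28 (adjusted p = 0.000107). Each CDAA array was above every CSAA array for both chains, but all values were under the bar of total liver. In hepatocytes Col1a1 read 4.64, 4.08 and 4.00 on CSAA and 7.54, 6.72 and 6.81 on CDAA (2.79 ± 0.38, adjusted p = 6.27e-05). Col1a2 there read 3.86, 4.72 and 4.01 and then 7.51, 7.33 and 8.09 (3.45 ± 0.33, adjusted p = 1.47e-06). On CDAA in hepatocytes Col1a2 was above the bar of its array in 3 of 3 arrays and Col1a1 in 1 of 3. The bar was higher there on CSAA (7.57 to 8.01) than on CDAA (6.84 to 7.61). With CSAA set at its own bar no difference is left for either chain. For Col1a1, Col1a2 and Col3a1 the calls in both tissues held under all 22 alternatives run.

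The upstream sequences of Col3a1 and Col1a2 are shown because these 2 genes had the largest fitted differences in hepatocytes, and because they differ plainly in base composition. They are the 250 bases before the RefSeq start (GRCm38.p6), with matches to the searched motifs in capitals. Searched on both strands were TATAAA (the TATA box), CCAAT (the CCAAT box), GGGCGG (the GC box) and TGANTCA (the AP-1 site, which reads the same on both strands).
Col3a1, chr1:45311288-45311537, plus strand: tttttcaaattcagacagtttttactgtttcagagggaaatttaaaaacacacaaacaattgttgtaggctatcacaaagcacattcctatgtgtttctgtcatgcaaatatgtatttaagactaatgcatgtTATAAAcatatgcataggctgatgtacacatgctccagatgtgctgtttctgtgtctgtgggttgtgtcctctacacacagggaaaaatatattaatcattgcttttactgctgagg
Col1a2, chr6:4505368-4505617, plus strand: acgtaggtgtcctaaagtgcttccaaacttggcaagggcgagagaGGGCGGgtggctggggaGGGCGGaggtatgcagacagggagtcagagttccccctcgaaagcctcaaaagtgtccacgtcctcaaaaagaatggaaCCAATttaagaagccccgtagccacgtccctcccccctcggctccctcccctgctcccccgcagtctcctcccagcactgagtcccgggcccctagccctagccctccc
The Col3a1 window was 35.2% G and C and held 1 match, TATAAA, which began 117 bases before the start. The Col1a2 window was 62% G and C and held GGGCGG at 205 and 188 bases and CCAAT at 109 bases before the start, and no matches overlapped. Among the 32851 windows of this length that were searched, with 1 chromosome left out, 12.4% held TATAAA, 33.8% CCAAT, 32.7% GGGCGG and 6.75% TGANTCA. Of the 34 collagen genes with a window 5, 12, 20 and 1 held them in at least 1 window. The latter are counts of genes and the shares are of windows. A match of letters is a description and not a site of binding.

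**Figure D3:**
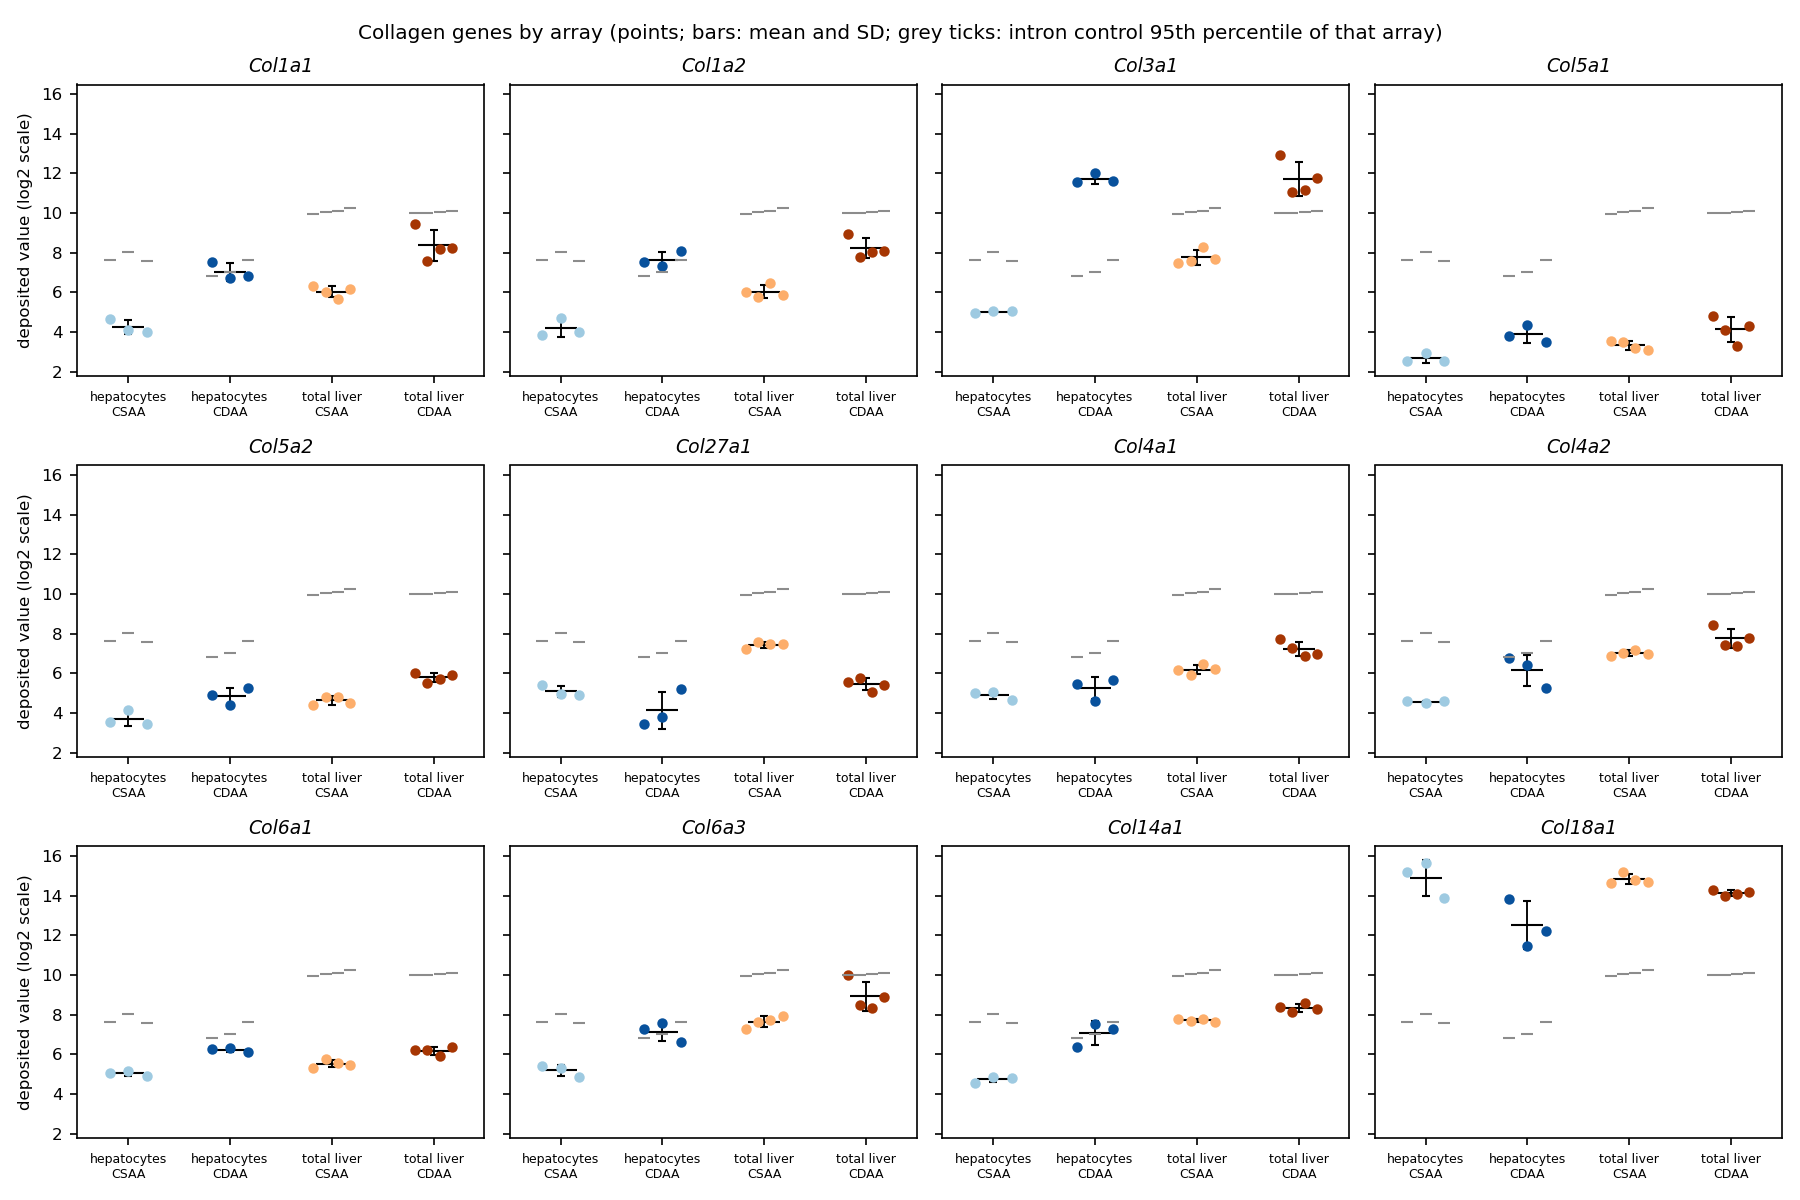
Deposited log2 value (vertical axis) of 12 collagen genes in each array (points), with the mean and SD of the group; grey ticks mark the 95th percentile of the intron controls on the same array. Col3a1 passes from under the ticks to above them on CDAA in both tissues (5.03 to 11.73 in hepatocytes, 7.76 to 11.72 in total liver), and Col18a1 is above them in every array. In hepatocytes the CDAA points of Col1a2 lie above the ticks, and those of Col1a1, Col6a3 and Col14a1 lie on either side of them.

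The type V chains moved less. Col5a2 read 4.39, 4.82, 4.79 and 4.53 in total liver on CSAA and 6.03, 5.49, 5.73 and 5.91 on CDAA (1.16 ± 0.22, adjusted p = 0.0028). In hepatocytes it read 3.55, 4.12 and 3.42 and then 4.91, 4.42 and 5.25 (1.16 ± 0.26, adjusted p = 0.00428), and the call was lost with only the hepatocyte arrays in the fit (adjusted p = 0.0734). The diets did not overlap in either tissue, and the 2 differences were of like size (total liver minus hepatocytes -0.01 ± 0.34).

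Col5a1 rose in hepatocytes, from 2.68 ± 0.25 (SD, n = 3) to 3.88 ± 0.42, a difference of 1.20 ± 0.33 (adjusted p = 0.0167). Without the first CSAA array that p became 0.0544, without the second CDAA array 0.0869, and with only the hepatocyte arrays 0.0505. In total liver Col5a1 read 3.55, 3.50, 3.19 and 3.08 on CSAA and 4.81, 4.11, 3.28 and 4.30 on CDAA, and the third CDAA array overlapped the controls (0.79 ± 0.28, adjusted p = 0.0924). Without that array the difference was 1.07 (adjusted p = 0.0133). Both chains lay under the bar in every group.

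Col27a1 was the one fibrillar gene called lower. Its protein forms thin fibrils known mainly from cartilage. In total liver it read 7.25, 7.58, 7.47 and 7.45 on CSAA and 5.55, 5.77, 5.08 and 5.39 on CDAA, a difference of -1.99 ± 0.30 (adjusted p = 0.000489). No CDAA array reached a CSAA array, and the call held under all 22 alternatives run, though all values lay under the bar. In hepatocytes it read 5.42, 4.95 and 4.91 and then 3.43, 3.79 and 5.20, with the third CDAA array among the controls (-0.95 ± 0.35, adjusted p = 0.0731). Without that array the difference was -1.49 (adjusted p = 0.000524).

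The other 5 fibrillar genes (Col2a1, Col5a3, Col11a1, Col11a2 and Col24a1) did not pass in either tissue and had no unadjusted p under 0.05. Their limma differences ran from -0.65 to 0.03 in total liver and from -0.71 to -0.01 in hepatocytes. Of all 22206 tested probe sets, 5238 had an unadjusted p under 0.05 in total liver and 6913 in hepatocytes. As a class, 4 of 11 fibrillar genes rose and 1 fell in total liver (36.4% and 9.09%, median 0.03). In hepatocytes 5 rose (45.5%, median -0.01). Of all tested probe sets 6.73% rose and 3.54% fell in total liver, and 11.0% rose in hepatocytes. Of the 11 genes, 8 lay under the bar in every group.

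Of the 6 type IV genes, Col4a1 rose in total liver and Col4a2 in hepatocytes, the pair whose chains make up the common basement membrane network. In each tissue that is 1 of 6 genes (16.7%), beside 6.73% of all tested probe sets in total liver and 11.0% in hepatocytes. In total liver Col4a1 read 6.15, 5.92, 6.45 and 6.22 on CSAA and 7.71, 7.28, 6.89 and 6.98 on CDAA (1.03 ± 0.24, adjusted p = 0.0123). Col4a2 read 6.86, 7.05, 7.20 and 6.95 and then 8.44, 7.45, 7.35 and 7.80 (0.75 ± 0.29), which did not pass (adjusted p = 0.128) although the diets did not overlap. Without the first CDAA array, the highest, the adjusted p of Col4a1 was 0.0520, and with joint quantile normalization 0.0720.

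In hepatocytes the order was the other way round. Col4a2 read 4.58, 4.50 and 4.59 on CSAA and 6.75, 6.41 and 5.27 on CDAA, which rose by 1.58 ± 0.34 (adjusted p = 0.00316). Col4a1 read 5.03, 5.03 and 4.65 and then 5.44, 4.62 and 5.67, with overlap (0.34 ± 0.28, adjusted p = 0.453). The tissues were not shown to differ for either gene (limma, adjusted p = 0.505 for Col4a1 and 0.494 for Col4a2). Col4a3 to Col4a6, the chains of specialised basement membranes such as that of the kidney, had differences of -0.57 to 0.05 in total liver and -0.41 to -0.22 in hepatocytes, with no call. In total liver the diets did not overlap for Col4a5 (-0.57 ± 0.19, adjusted p = 0.0654) and Col4a4 (-0.43 ± 0.20, adjusted p = 0.201), both with the lower values on CDAA. These are 2 of 6 genes (33.3%), beside 12.0% of all tested probe sets. All 6 genes lay under the bar in every group, and the class median was 0.05 and -0.25.

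Of the 3 chains of the common form of type VI collagen, Col6a1 and Col6a3 rose in both tissues and Col6a2 in hepatocytes. Col6a3, whose long chain is cut to release endotrophin, read 7.26, 7.64, 7.74 and 7.96 in total liver on CSAA and 9.97, 8.51, 8.34 and 8.90 on CDAA. In hepatocytes it read 5.42, 5.29 and 4.88 and then 7.27, 7.56 and 6.60. Neither tissue showed overlap, and the differences were 1.28 ± 0.32 (adjusted p = 0.0172) and 1.94 ± 0.37 (adjusted p = 0.00132). In total liver the call was lost without the first CSAA array (adjusted p = 0.0604).

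Col6a1 read 5.33, 5.77, 5.58 and 5.45 in total liver on CSAA and 6.23, 6.23, 5.89 and 6.36 on CDAA (0.65 ± 0.17, adjusted p = 0.0219). That small shift did not pass without any 1 of the first and the fourth CSAA arrays or the first, the second and the fourth CDAA arrays (adjusted p up to 0.0755). In hepatocytes Col6a1 read 5.07, 5.18 and 4.92 and then 6.25, 6.30 and 6.09, a clear step (1.16 ± 0.19, adjusted p = 0.000427).

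Col6a2 read 5.41, 5.78, 5.22 and 5.34 and then 7.97, 6.28, 5.65 and 6.01 in total liver, where the third CDAA array overlapped the controls (1.04 ± 0.40, adjusted p = 0.125). In hepatocytes it read 3.62, 4.13 and 4.11 and then 4.64, 5.63 and 5.86 (1.42 ± 0.47, adjusted p = 0.0441). That call was lost without any 1 of 11 of the 14 arrays (adjusted p up to 0.136). It held only without the first CDAA hepatocyte array or without the first or the third CDAA array of total liver.

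The other 6 network genes, Col6a4, Col6a5 and Col6a6 and the lattice collagens Col8a1, Col8a2 and Col10a1, had differences of -0.37 to -0.20 in total liver and -0.50 to 0.26 in hepatocytes, and none passed in limma or had an unadjusted p under 0.05. The class median was -0.21 and 0.02. As a class, 2 of 9 network genes rose in total liver (22.2%) and 3 of 9 in hepatocytes (33.3%), beside 6.73% and 11.0% of all tested probe sets.

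A single array weighed on the total liver values. The first CDAA array was the highest of all total liver arrays for Col1a1, Col1a2, Col3a1, Col5a1, Col5a2, Col4a1, Col4a2, Col6a2 and Col6a3. Over Col1a1, Col1a2, Col3a1, Col5a1 and Col5a2 it lay 2.88 above the CSAA mean, and the other CDAA arrays 1.65 to 2.09. Over the 3 type VI chains it lay 1.85 above, and the others 0.42 to 0.89. The same array was also the highest for stellate markers (1.31 above the CSAA mean, against 0.27 to 0.75), macrophage markers (2.94, against 2.31 to 2.56), myofibroblast and smooth muscle markers (1.69, against 0.74 to 1.31) and cholangiocyte markers (1.04, against -0.20 to 0.51). It was the lowest CDAA array for endothelial markers (0.06, against 0.64 to 0.75). Their part in its collagen levels was not tested. Without it 6 collagen genes passed in total liver, and Col4a1 and Col6a1 did not. Over all tested probe sets 1080 rose and 430 fell without it, against 1494 and 785 with all arrays.

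Among the 16 collagen genes of other classes, Col14a1 rose in hepatocytes and Col15a1, Col18a1, Col20a1 and Col22a1 fell there. Those are 6.25% and 25% of the class, beside 11.0% and 7.74% of all tested probe sets. In total liver none of the 16 passed in limma, and 3 had an unadjusted p under 0.05, beside 5238 of all 22206 tested probe sets. The class median was -0.27 in total liver and -0.40 in hepatocytes.

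Col14a1, a FACIT collagen that coats type I fibres, read 4.56, 4.86 and 4.80 in hepatocytes on CSAA and 6.38, 7.55 and 7.30 on CDAA (2.33 ± 0.26, adjusted p = 7.1e-06). In total liver it read 7.76, 7.70, 7.79 and 7.62 and then 8.40, 8.12, 8.57 and 8.29, a small and even step without overlap (0.63 ± 0.22) that did not pass in the fit of all arrays (adjusted p = 0.0923). With only the total liver arrays in the fit it did (adjusted p = 0.00945).

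Col18a1, the precursor of endostatin (TC1000002418.mm.2), was the one collagen gene above background in every array. Its rank among the intron controls lay between the 99.1 and 99.7 percentile throughout. In hepatocytes it read 15.18, 15.63 and 13.87 on CSAA and 13.84, 11.48 and 12.19 on CDAA, a difference of -2.39 ± 0.49 (adjusted p = 0.00238). The highest CDAA array lay just under the lowest CSAA array, and with only the hepatocyte arrays in the fit the adjusted p was 0.0781. In total liver it read 14.64, 15.18, 14.80 and 14.70 and then 14.30, 13.98, 14.08 and 14.18, again with no overlap (-0.69 ± 0.42, adjusted p = 0.349), and with only the total liver arrays in the fit the adjusted p was 0.00964. Beside this fall in the hepatocyte preparations, 2 of 8 hepatocyte markers were called lower, Hnf4a (-1.72 ± 0.46, adjusted p = 0.0143) and Cps1 (-1.35 ± 0.27, adjusted p = 0.00204). The other 6 were not called. Among these Cyp2e1 had 0.06 ± 0.28, Ttr -0.12 ± 0.16 and Serpina1c -0.37 ± 0.17 (adjusted p = 0.158). Tat was lower on average but did not pass (adjusted p = 0.186). Alb, the albumin gene, stood at the highest value of each CSAA hepatocyte array, tied with Apoa1, so its difference is not read. The part of the hepatocyte markers in the Col18a1 result was not tested.

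The other 3 falls in hepatocytes were small and lay under the bar. Col22a1, a FACIT collagen of tissue junctions, read 5.15, 5.58 and 5.23 on CSAA and 4.25, 4.56 and 4.53 on CDAA (-0.88 ± 0.22, adjusted p = 0.0102), and without the second CSAA array its adjusted p was 0.0506. Col20a1, a further FACIT collagen, read 6.93, 7.55 and 7.11 and then 6.46, 5.68 and 6.70 (-0.92 ± 0.27, adjusted p = 0.0248). Its call was lost without the second CSAA array (adjusted p = 0.110) and without the second CDAA array (adjusted p = 0.130).

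Col15a1, the second multiplexin, read 3.78, 3.31 and 3.35 and then 2.82, 2.60 and 2.81 (-0.74 ± 0.25, adjusted p = 0.0483). The call was lost without any 1 of 12 of the 14 arrays (adjusted p up to 0.169), and held only without the first or the third CDAA array of total liver. All 3 genes showed no overlap between diets in hepatocytes. In total liver their differences were -0.45 to -0.21 and did not pass.

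Col16a1, a FACIT collagen, was above the bar in some hepatocyte arrays of both diets. It read 7.64, 8.12 and 7.23 on CSAA and 6.55, 6.39 and 8.32 on CDAA, a wide scatter (-0.58 ± 0.40, adjusted p = 0.358). Without the third CDAA array the difference was -1.19 (adjusted p = 0.00683). In total liver its difference was -0.42 ± 0.35. The other 10 genes of this class had differences of -0.44 to 0.54 in total liver and -0.64 to 0.30 in hepatocytes, with no call.

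Tests of the difference between the tissues called Col3a1 and Col14a1. These tests take a log2 unit to be the same size in both tissues, which was not tested, and the levels of the intron controls show that the deposited scales differ. With quantile normalization of all arrays together both genes still passed. The diet difference of Col3a1 was 2.74 ± 0.50 smaller in total liver than in hepatocytes (adjusted p = 0.00531), and that of Col14a1 was 1.71 ± 0.34 smaller (adjusted p = 0.0101). These are 4.76% of the members, beside 2.36% of all tested probe sets with a lower and 0.212% with a higher difference in total liver (2.57% in either direction). For Col1a2 the tissues differed by -1.25 ± 0.43 and for Col18a1 by 1.69 ± 0.65, and neither passed (adjusted p = 0.202 and 0.272). Without the first CDAA hepatocyte array, Col18a1 (2.36, adjusted p = 0.00534) and Col27a1 (-1.39, adjusted p = 0.0492) passed as well. In that fit 1025 of all tested probe sets had a higher and 1240 a lower difference in total liver, against 47 and 523 with all arrays. The call of Col14a1 was lost with a spread taken per tissue (adjusted p = 0.0522). Of the stellate markers 6 of 9, of the endothelial markers 6 of 7 and of the macrophage markers 6 of 6 differed in the same direction as Col3a1 and Col14a1, and their part in these results was not tested.

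Genes that fold, cut, cross-link and recognise collagen were read from a list of 54, of which 48 were measured. In total liver 13 rose and 1 fell (27.1% and 2.08%, median 0.41), and in hepatocytes 20 rose and 3 fell (41.7% and 6.25%, median 0.61), beside the background shares of 6.73% and 3.54% and of 11.0% and 7.74%. In total liver the count of called genes was 7 without the first CDAA array, against 14 with all arrays. Over all tested probe sets 1080 rose and 430 fell without that array, against 1494 and 785 with all. By role, 3 of 5 cross-linking genes and 4 of 8 fibril-associated genes rose in total liver, and 3 of 5 and 6 of 8 in hepatocytes. Of 8 prolyl hydroxylation genes 1 rose in total liver, and 3 rose and 1 fell in hepatocytes. Of 8 receptor and uptake genes 2 and 4 rose. Among 8 chaperone and secretion genes 1 rose in total liver, and 1 rose and 1 fell in hepatocytes, with medians of -0.06 and -0.28. Among 4 genes of lysyl hydroxylation and glycosylation 1 rose in each tissue.

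Serpinh1, the chaperone (HSP47) that procollagen needs in the endoplasmic reticulum, read 5.10, 4.18 and 4.24 in hepatocytes on CSAA and 8.50, 10.37 and 10.13 on CDAA (5.16 ± 0.44, adjusted p = 4.44e-07, bound 1.93). In total liver it read 7.53, 7.05, 7.60 and 7.79 and then 9.53, 8.54, 8.41 and 8.50 (1.26 ± 0.38, adjusted p = 0.0458). The first CDAA array was again the highest there, and without it the adjusted p was 0.160. The call was lost without any 1 of 10 of the 14 arrays, and held only without the first CSAA array or any 1 CDAA array of the hepatocytes. Crtap, a subunit of the prolyl 3-hydroxylase complex, rose in both (total liver 1.68 ± 0.26, adjusted p = 0.000553; hepatocytes 4.04 ± 0.30, adjusted p = 1.21e-07, bound 2.59).

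Of the prolyl 4-hydroxylase subunits, P4ha1 rose in hepatocytes (2.45 ± 0.41, adjusted p = 0.000387, bound 1.20), with 0.68 ± 0.35 in total liver (adjusted p = 0.26). P4ha2 had -0.03 in total liver and 0.02 in hepatocytes, and the lysyl hydroxylase gene Plod2 had 0.40 and -0.03, none past the threshold. Colgalt1, which adds galactose to hydroxylysine, rose evenly, by 1.42 ± 0.17 in total liver (adjusted p = 5.94e-05) and by 1.73 ± 0.20 in hepatocytes (adjusted p = 1e-05).

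Of 7 genes of propeptide cleavage, 1 rose and 1 fell in total liver (14.3% each), and 2 rose and 1 fell in hepatocytes (28.6% and 14.3%). Of all tested probe sets 6.73% rose and 3.54% fell in total liver, and 11.0% and 7.74% in hepatocytes. Bmp1, the protease that removes the C-propeptide, fell from 11.55, 11.46, 11.70 and 11.78 to 9.92, 10.34, 10.36 and 10.51 in total liver (-1.34 ± 0.36, adjusted p = 0.025). In hepatocytes it fell from 10.42, 9.92 and 9.12 to 8.50, 6.97 and 6.52 (-2.49 ± 0.41, adjusted p = 0.000384). Pcolce, the enhancer of that protease, rose by 1.67 ± 0.36 in total liver (adjusted p = 0.00666) and by 3.73 ± 0.42 in hepatocytes (adjusted p = 8.25e-06, bound 0.41). Its relative Pcolce2, chosen after its values were seen, rose in hepatocytes by 2.89 ± 0.48 (adjusted p = 0.000391), with -0.14 ± 0.41 in total liver (adjusted p = 0.876), and was the one gene of this role past the test of the difference between tissues (-3.03 ± 0.63, adjusted p = 0.0139). Both calls held under all 22 alternatives run. The total liver call of Bmp1 was lost without any 1 of the first, the third and the fourth CSAA arrays or the first and the second CDAA arrays (adjusted p up to 0.0867).

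Of the cross-linking genes, Lox, the lysyl oxidase, read 3.87, 4.00, 4.43 and 4.23 in total liver on CSAA and 6.42, 5.53, 5.21 and 5.82 on CDAA (1.61 ± 0.23, adjusted p = 0.000287). In hepatocytes Lox read 4.29, 4.39 and 4.69 and then 5.13, 5.15 and 5.24, a small step without overlap (0.72 ± 0.27, adjusted p = 0.0763). All of these values lay under the bar. Its relative Loxl1 rose by 1.10 ± 0.28 in total liver (adjusted p = 0.0213) and by 1.77 ± 0.33 in hepatocytes (adjusted p = 0.00113), the first of these lost without any 1 of the third and the fourth CSAA and the first and the third CDAA arrays (adjusted p up to 0.0770). Tgm2, a transglutaminase, rose by 2.03 ± 0.48 (adjusted p = 0.0122, bound 1.16; 0.0519 without the first CDAA array) and by 2.59 ± 0.56 (adjusted p = 0.0035, bound 2.07; 0.0625 with only the hepatocyte arrays).

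Within this list of 48, the widest gap between the tissues was among proteins that bind collagen fibrils. Sparc, a collagen-binding matrix protein, read 6.03, 7.84 and 7.56 in hepatocytes on CSAA and 15.50, 16.81 and 16.24 on CDAA (9.04 ± 0.43, adjusted p = 9.99e-10, bound 8.44), and rose by 2.66 ± 0.37 in total liver (adjusted p = 0.000208). The small proteoglycan genes Dcn, Lum and Bgn, whose products bind fibrils, rose in hepatocytes by 7.18 ± 0.59, 6.75 ± 0.57 and 6.09 ± 0.40. In total liver Lum rose by 2.49 ± 0.50 (adjusted p = 0.00366, bound 1.48) and Bgn by 1.16 ± 0.34 (adjusted p = 0.0428), and Dcn had 1.18 ± 0.51 (adjusted p = 0.17) with no overlap between diets. Dcn passed in total liver with only those arrays in the fit (adjusted p = 0.00109), with replicate number as a block (0.00664), with array weights (0.0216) and without the first CSAA hepatocyte array (0.0400). Postn, a matrix protein of scars, rose by 1.58 ± 0.48 (adjusted p = 0.0486) and by 4.27 ± 0.55 (adjusted p = 3.65e-05). The total liver calls of Bgn (adjusted p up to 0.129) and Postn (up to 0.148) were lost without any 1 of the 8 total liver arrays, and that of Postn also without the first or the third CSAA hepatocyte array.

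Among collagen receptors, Ddr2, the receptor kinase for fibrillar collagen, rose in hepatocytes (2.65 ± 0.33, adjusted p = 2.58e-05), with 0.64 in total liver (adjusted p = 0.188). Ddr1 had 0.67 (adjusted p = 0.118) and -0.22. Lair1, an inhibitory collagen receptor of immune cells, rose by 2.37 ± 0.52 in total liver (adjusted p = 0.00763) and by 5.66 ± 0.60 in hepatocytes (adjusted p = 5.03e-06). Sparc, Dcn, Bgn, Lum, Serpinh1, Crtap, Pcolce2, Ddr2 and Lair1 passed the test of the difference between tissues, each with the larger difference in hepatocytes. That call was lost for Ddr2 without any 1 of 6 arrays (adjusted p up to 0.0743) and for Lair1 without any 1 of 11 (adjusted p up to 0.111). As with Col3a1 and Col14a1, most markers of stellate, endothelial and macrophage cells differed in the same direction as the genes named here. Dcn is itself 1 of the 9 stellate markers, and the part of these markers was not tested.

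**Figure D4:**
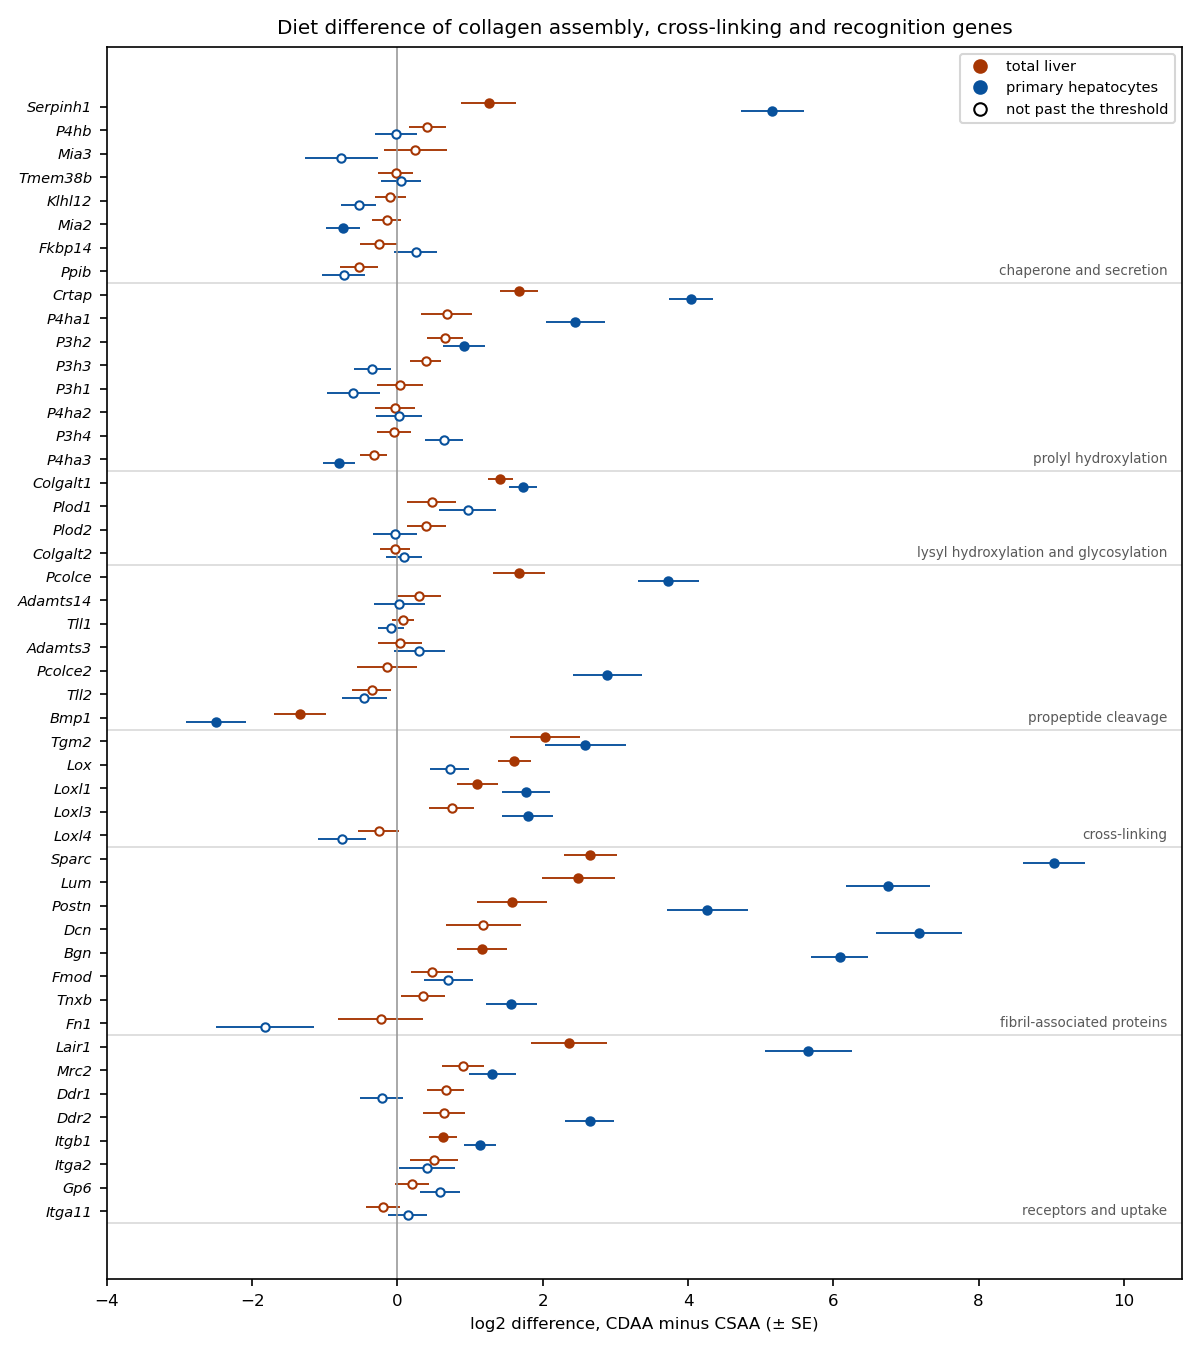
Difference of the 48 measured genes of collagen assembly, cross-linking and recognition, CDAA minus CSAA, in log2 units (horizontal axis, points with SE bars), grouped by role, for total liver and primary hepatocytes; filled points passed the threshold. Sparc, Dcn, Lum, Bgn, Lair1 and Serpinh1 have far larger values in hepatocytes than in total liver, Bmp1 lies to the left in both, and P4ha2 and Plod2 lie near 0.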

How the data were processed

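RNA from 14 mouse liver samples was measured on Clariom S arrays. The deposited values are log2 intensities per probe set that the authors made by RMA, per the submitters' processing notes. The RMA variant and the probe set build are not given in the sources used here. Of 28846 probe sets, 6640 controls were left out and 22206 tested, without a filter. Symbols came from GEO's platform annotation (19572 probe sets with 1 symbol, 2634 with none). Groups follow the sample titles. The model gave each of the 4 groups its own mean over the 14 arrays (limma 3.58.1, R 4.3.3, 10 residual and 5.11 prior degrees of freedom), two-sided, with a threshold of 0.05 on the adjusted p. Precision is limited by the number of arrays. The code was tested on simulated data.

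The members and lists were chosen with earlier results of these data known, and nothing here is independent support for patterns seen before. Named members were the main chains of types I, III, V, IV, VI, XV and XVIII, any member past the threshold, and any above background. Named processing genes were the 12 with the smallest p per tissue among those past the threshold, and Serpinh1, P4ha1, P4ha2, Plod2, Lox, Ddr1 and Ddr2. Pcolce2 was added after its values were seen. Not measured were Fkbp10, Plod3, Adamts2, Loxl2, Itga1 and Itga10, and of 51 cell markers Ecm1, Spp1 and Cd68. Promoter windows came from RefSeq.

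The arrays are called independent preparations, so replicate numbers were not used as pairs in the main fit. The residual correlation of equal numbers was 0.35, -0.21 and 0.26 for the hepatocyte pairs and -0.13 to 0.02 for total liver. Unequal numbers were not compared, so these values cannot exclude pairing. Alternatives were the 2 compared groups alone, trend and robust moderation, a filter on the 30% dimmest probe sets, array weights, quantile normalization over all arrays, arrays centred on their medians, replicate number as a block, averaging the probe sets of a gene, and leaving out each array. The comparison of triple-helix repeats in the proteins was not run.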

Additional observations from a re-analysis of the deposited data

Results flagged for a closer look

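In groups of 4 arrays, 7 of 74 pairs of a named gene and a group held 1 array far from the other 3, where chance gives about 1 in 20 (3.7). Col22a1 was high in the fourth CSAA array of total liver (6.26, the others 5.72 to 5.79) and low in the third CDAA array (5.28, the others 5.72 to 5.79). Col15a1 was high in the third CSAA array (5.03, the others 4.62 to 4.66). In the first CDAA array Serpinh1 (9.53, the others 8.41 to 8.54) and Colgalt1 (12.01, the others 11.65 to 11.70) were high. Postn was low in the second CSAA array (7.84, the others 8.65 to 8.79), and Ddr2 was high in the fourth (6.49, the others 6.07 to 6.08).

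The diet difference itself differed between the tissues, total liver minus hepatocytes, for 11 named genes (limma, adjusted p). These tests take a log2 unit to be the same size in both tissues, which was not tested, and all 11 also passed with quantile normalization of all arrays together. Among collagen genes these were Col3a1 (-2.74, adjusted p = 0.00531) and Col14a1 (-1.71, adjusted p = 0.0101). Among the genes of folding and hydroxylation they were Serpinh1 (-3.91, adjusted p = 0.00101) and Crtap (-2.36, adjusted p = 0.00287). Pcolce2, of propeptide cleavage, was a further one (-3.03, adjusted p = 0.0139). Among the proteins that bind fibrils they were Sparc (-6.38, adjusted p = 1.22e-05), Dcn (-5.99, adjusted p = 0.000311), Bgn (-4.93, adjusted p = 5.77e-05) and Lum (-4.26, adjusted p = 0.00445). Among receptors they were Ddr2 (-2.00, adjusted p = 0.0197) and Lair1 (-3.29, adjusted p = 0.0383).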

How the results depend on the processing

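No called value of a named gene changed sign under any alternative run, and of 2433 recomputed values 2283 kept their side of the threshold, 114 lost it and 36 gained it. Collagen calls in total liver (8) were 15 with array weights and 6 to 10 with 1 array left out. Calls over all tested probe sets moved too, from 1494 higher and 785 lower in total liver to 2653 and 2339 with array weights. In hepatocytes (14) they were 7 with only the hepatocyte arrays and 10 to 14 with 1 array left out. For the difference between tissues (2) the collagen calls were 1 with a spread per tissue, 4 with array weights (Col18a1 and Col4a1 added) and 2 to 4 with 1 array left out. Over all tested probe sets, 47 were higher and 523 lower for this difference. These became 1035 and 1690 with array weights, and 1025 and 1240 without the first CDAA hepatocyte array. Calls of the processing genes ran from 7 to 15 in total liver (14) and from 20 to 25 in hepatocytes (23) with 1 array left out, the lowest without the first CDAA array of total liver. Replicate numbers as a block left 7 collagen calls in total liver, 12 in hepatocytes and 2 for the difference, and lost Col6a1 in total liver and Col15a1 and Col20a1 in hepatocytes. Centring on array medians moved the median of all probe sets from -0.09 to -0.23 in total liver and from -0.13 to -0.29 in hepatocytes. Collagen genes above background numbered 5, 13, 1 and 5 at the 90th percentile of the intron controls and 1, 2, 1 and 1 at the 99th (hepatocytes CSAA and CDAA, total liver CSAA and CDAA). The cause of these moves was not tested. The filter on dim probe sets removed 12 of the 42 genes, and signal over background limits what can be said of these.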

Other observations

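Several collagen genes are neighbours in the RefSeq gene order, and the calls of neighbours can be set side by side. Col3a1 and Col5a2 lie next to each other on chromosome 1, and both rose in both tissues. Col6a2 and Col6a1 lie next to each other on chromosome 10, and in total liver Col6a1 alone of the pair rose, while in hepatocytes both did. Col4a1 and Col4a2 on chromosome 8 start next to each other on opposite strands, and Col4a1 was the one called in total liver and Col4a2 the one called in hepatocytes. No gene of the neighbour groups Col4a4 and Col4a3, Col4a6 and Col4a5, Col6a6, Col6a5 and Col6a4, or Col9a1 and Col19a1 was called in either tissue. No test was run on these pairs.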
